A study of Mus musculus with 45 samples.

Results

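The miR-125 family was followed through the miRNAs of alveolar macrophages (AM), the resident phagocytes of the airspace. Its 4 members, chosen by name, were miR-125a-5p (mmu-mir-125a-5p in the tables), miR-125b-5p (mmu-mir-125b-5p) and the passenger strands miR-125b-1-3p (mmu-mir-125b-1-3p) and miR-125b-2-3p (mmu-mir-125b-2-3p), out of 476 miRNAs listed over 6 tables of values, 1 for each genotype and sex. The family was proposed with the values after ozone (O3) and filtered air (FA) already known, so its differences between O3 and FA, with the calls given beside them, are given as descriptions. miR-125a-5p and miR-125b-5p were listed in all 6 tables, miR-125b-1-3p in 5 (not in co-ex males) and miR-125b-2-3p only in SP-A2 males. A miRNA was listed with a value above 0 in at least 3 or 4 mice of its table, so a member that is not listed is not thereby at 0. The 45 mice were 12 weeks old and recovered for 18 h after 3 h of O3 or FA. SP-A2 mice carried the human surfactant protein variant 1A0, co-ex mice carried both 6A2 (SP-A1) and 1A0 (SP-A2), and KO mice carried no SP-A. The human genes were transgenes on a mouse background without its own SP-A, so all 3 genotypes lacked the mouse protein. There were 3 FA and 3 O3 mice among SP-A2 males, 4 and 3 among co-ex males, and 4 and 4 in each of the other genotype and sex groups. The cells were collected by lavage, and the small RNA was sequenced. Each mouse was 1 replicate. The labels were followed for these numbers, although the study's methods give 3 co-ex males in each condition.

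A miRNA precursor folds into a hairpin from which both arms can be cut. The strand that enters Argonaute pairs with target mRNAs mainly through its seed, bases 2 to 8, and the other strand, the passenger, is mostly degraded. miR-125a and miR-125b are the vertebrate relatives of lin-4 and are known for roles in blood cell development and in the tuning of inflammatory signalling in macrophages.

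The mature sequences are shown because the seed joins some members and separates others (RefSeq, GRCm38.p6, 5′ to 3′, seed in capitals). miR-351-5p, a non-member with the same seed, is added for comparison.
miR-125a-5p: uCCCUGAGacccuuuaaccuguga
miR-125b-5p: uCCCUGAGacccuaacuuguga
miR-351-5p: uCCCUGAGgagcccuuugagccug
miR-125b-1-3p: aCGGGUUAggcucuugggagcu
miR-125b-2-3p: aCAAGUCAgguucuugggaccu
miR-125a-5p and miR-125b-5p share their first 13 bases and are 3 edits apart over 24 and 22 bases. Of the 476 listed miRNAs, 407 had a RefSeq entry, and 3 of these had the seed CCCUGAG (miR-125a-5p, miR-125b-5p and miR-351-5p). The passenger strands have seeds of their own, CGGGUUA and CAAGUCA, each found in 1 listed miRNA, and differ from each other at 5 of 22 positions.

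The hairpins of Mir125a and Mir125b-1 are printed to show where the strands lie, with both mature arms in capitals.
Mir125a: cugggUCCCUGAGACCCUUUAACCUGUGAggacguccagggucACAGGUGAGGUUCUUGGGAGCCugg
Mir125b-1: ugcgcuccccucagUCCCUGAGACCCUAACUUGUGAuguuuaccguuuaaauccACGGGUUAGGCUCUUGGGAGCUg
Mir125a lies at chr17:17830812-17830879 (plus strand), in an exon of Spaca6 by GENCODE M21, 554 bases after Mir99b and 367 after Mirlet7e. Mir125b-1 lies at chr9:41581926-41582002 (plus strand), in introns of the non-coding genes 3110039I08Rik and Gm49317, 50421 bases after Mir100 and 45114 after Mirlet7a-2. Mir125b-2 lies at chr16:77646273-77646343 (plus strand), in an intron of the non-coding gene Mir99ahg, 47272 bases after Mir99a and 46522 after Mirlet7c-1. The 22 bases of miR-125b-5p are identical at its 2 loci, so only the 3p strands tell the loci apart.

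Reads on the listed miRNAs ranged from 137965 to 2884013 per mouse (median 766213). The myeloid miRNA miR-223-3p was above 0 in all 45 mice, between 530 and 7749.5 RPM (reads per 1000000 reads on the 206 miRNAs common to all tables), while miR-142a-3p, another blood-lineage miRNA, was at 0 in 8 mice. All 6 myeloid miRNAs were in every table, and their sum was 3704 to 193445 RPM after FA and 7025 to 163008 after O3. Of these, miR-21a-5p alone was at 2168 to 179805 RPM after FA and 5479 to 154920 after O3. Of 8 mesenchymal miRNAs, 4 were in every table, and their summed level was 122 to 3044 RPM after FA and 1701 to 11819.5 after O3. Of 13 epithelial miRNAs, 9 were in every table, with sums of 1084 to 14112 after FA and 6564 to 26000.4 after O3. Of 5 erythroid miRNAs, 2 were in every table, miR-451a at no more than 187 RPM and miR-486b-5p at 1289 to 370636. miR-150-5p, the lymphoid miRNA, was between 0 and 14326.5. The endothelial miR-126a-3p was listed in 3 tables and miR-126a-5p in 1. Fewer cells of a type and less RNA per cell cannot be told apart in these samples.

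miR-125a-5p was the main carrier of the seed in every mouse. It made up 71.0% to 98.8% of the reads of the 3 miRNAs with this seed (median 91.2%), miR-125b-5p 0.268% to 23.6% (median 5.27%) and miR-351-5p 0.543% to 8.52% (median 3.11%). As a share of the reads on the 206 common miRNAs, miR-125a-5p was at 2.60% to 22.3% and miR-125b-5p at 0.0407% to 1.52%. The reads were not corrected for how well each miRNA enters a library, so the shares compare reads and not molecules.

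Over the 12 groups, the mean log2 level of miR-125a-5p (RPM + 1) spanned 1.54, from 14.98 ± 0.40 (SD, n = 3) in SP-A2 males after O3 to 16.52 ± 0.89 (n = 4) in co-ex females after FA. That of miR-125b-5p spanned 2.83, from 9.93 ± 0.95 in co-ex females after FA to 12.77 ± 1.08 in SP-A2 females after O3 (n = 4 each). The upward order of miR-125b-5p after FA was co-ex females, KO males, SP-A2 females, KO females, SP-A2 males and co-ex males, followed after O3 by SP-A2 males, KO females, co-ex females, co-ex males, KO males and SP-A2 females. All 6 FA means were thus below all 6 O3 means, an order without such a division for miR-125a-5p. For both miRNAs, each of the 11 gaps between neighbouring groups was smaller than the larger SD of the pair.

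**Figure D1:**
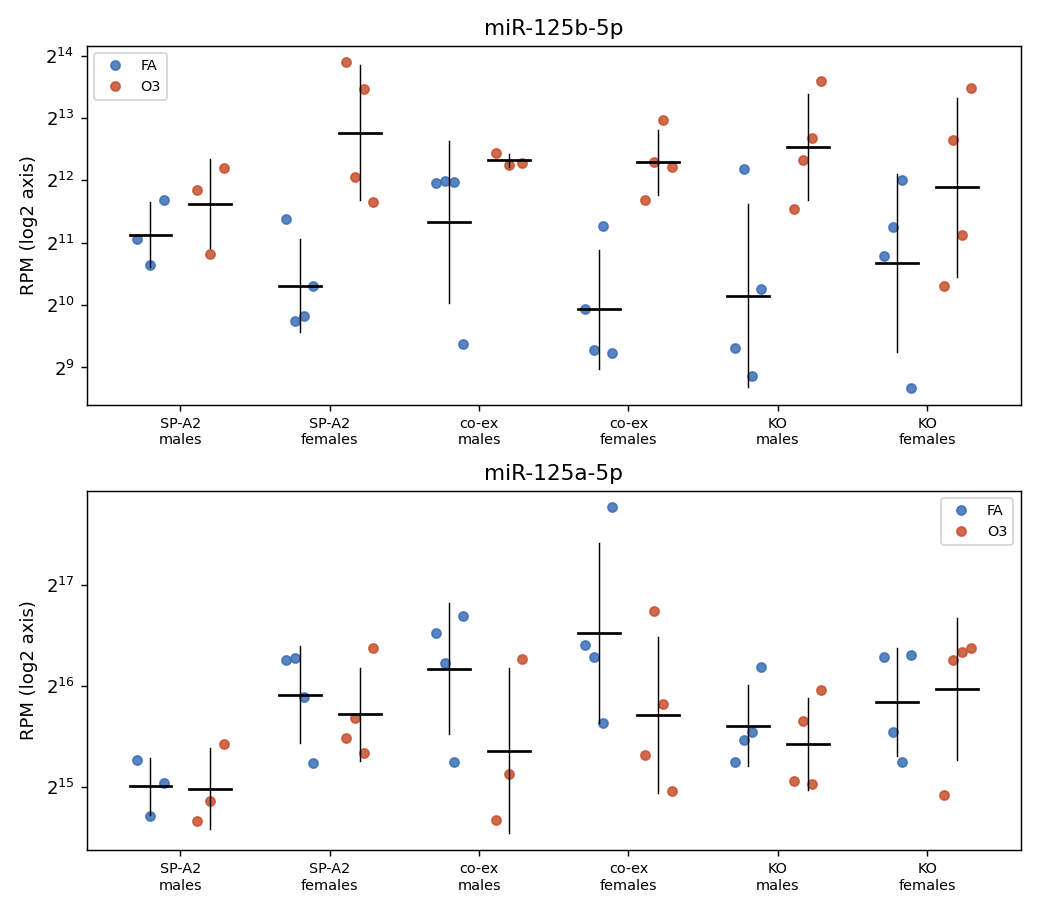
Levels of miR-125b-5p (top) and miR-125a-5p (bottom) in RPM on log2 axes, for 6 genotype and sex groups after FA (blue) and O3 (orange). Points are mice, horizontal bars are means and vertical lines are 1 SD of the log2 level, which spans 1.54 over the group means for miR-125a-5p and 2.83 for miR-125b-5p.

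miR-125b-5p, the guide strand shared by both Mir125b loci, had a higher mean after O3 than after FA in all 6 tables, and the difference was largest in the females of SP-A2 and co-ex. In SP-A2 males, the normalized values of miR-125b-5p (reads divided by the factor of each mouse) were 1699, 1405 and 2676 after FA and 3553, 1828 and 3614 after O3. The O3 mice were higher in 8 of 9 pairs of an O3 and an FA mouse, with a log2 difference of 0.63 (SE 0.41), taken as O3 minus FA by limma on log2(normalized value + 1). In SP-A2 females, the normalized values were 2009, 601, 584 and 1044 after FA and 14066, 3048, 9828 and 2380.2 after O3. All 4 O3 mice lay above all 4 FA mice, and the log2 difference was 2.60 (SE 0.59).

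In co-ex males, the normalized values were 3989.8, 3707, 6696 and 534 after FA and 7171, 7008 and 4217 after O3. The single FA mouse at 534 stood far below its 3 group mates. The log2 difference was 1.14 (SE 0.75), and 0.37 without that mouse. In co-ex females, the values were 731, 423, 2261 and 467 after FA and 3205, 4206, 7135 and 4962 after O3, and the groups did not overlap. In KO males, the normalized values were 649, 4021, 357 and 1168 after FA and 2873, 4545, 6326 and 8466 after O3. The FA mouse at 4021 lay above 1 of the 4 O3 mice, and the log2 difference was 2.33 (SE 0.66). In KO females, the normalized values were 1286, 1913, 5834 and 309.7 after FA and 1336, 4679.6, 1536 and 11416 after O3. These groups overlapped widely, with the O3 mice higher in 11 of 16 pairs and a log2 difference of 1.16 (SE 0.79). It was 0.41 without the FA mouse at 309.7, 0.55 without the O3 mouse at 11416 and 1.82 without the FA mouse at 5834.

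At the FDR of 0.1, limma passed miR-125b-5p in KO males and in the females of both SP-A2 and co-ex, and miR-125b-1-3p in SP-A2 females. This is 2 of 3 listed members in SP-A2 females beside 1.07% of all 373 miRNAs, 1 of 3 in co-ex females beside 1.38% of 290 and 1 of 3 in KO males beside 5.18% of 328. No member passed in SP-A2 males (0 of 4, beside 0.67% of 448), co-ex males (0 of 2, beside 0% of 234) or KO females (0 of 3, beside 0% of 287). All O3 mice lay above all FA mice for 3.49% of miRNAs in the table of SP-A2 females, 12.7% in SP-A2 males, 5.86% in co-ex females, 6.41% in co-ex males, 6.1% in KO males and 3.14% in KO females. The members were chosen with these contrasts known, so nothing is read from the counts. In SP-A2 females, miR-125b-1-3p was also listed only through its O3 mice, so its call there was favoured by the listing rule. edgeR on recovered reads passed 0 of the 18 cases of a member in a table, where limma and DESeq2 each passed 4. The share of all miRNAs passed is given here for limma only, so the 3 counts cannot be weighed against each other. The log2 difference of miR-125b-5p by edgeR was 1.45 in KO males, 2.64 for the females of SP-A2 and 2.21 for those of co-ex. Each of the 4 limma calls was lost in at least 2 of the 8 fits without 1 mouse. The summed mesenchymal miRNAs were higher after O3 in all 6 tables, without overlap. They were at 350.1 to 1765 RPM after FA and 2632 to 6348 after O3 in SP-A2 females. For those of co-ex, the sums were 122 to 1104 and 1884 to 7612. The KO males had 173 to 1684 and 4637 to 7882. Where no member passed, SP-A2 males had 1608 to 3044 after FA and 5173 to 11819.5 after O3. The males of co-ex had 1022 to 2206 and 2412 to 5733, and KO females 349 to 1357 and 1701 to 3287. The epithelial sums were 1084 to 6459 RPM after FA and 7728 to 17420 after O3 in co-ex females, without overlap, 7134 to 14112 and 7774 to 18405 for SP-A2 females, and 3440.2 to 10572 and 7923 to 26000.4 in KO males. The median myeloid sums were 82279 and 83152 RPM in KO males after FA and O3, 101881 and 36486 for the females of SP-A2, and 70594 and 39749.6 for those of co-ex. The median erythroid sums were 67657 and 58078 RPM in KO males after FA and O3, 17611 and 87423 for the females of SP-A2, and 23392 and 54102 for those of co-ex. The part of these lists in the values of miR-125b-5p was not tested.

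For miR-125a-5p, the guide strand of the third locus, the O3 and FA mice overlapped in every table. Its log2 difference, O3 minus FA, was 0.11 (SE 0.36) in SP-A2 males, -0.04 (SE 0.32) in SP-A2 females, -0.66 (SE 0.41) in co-ex males, -0.54 (SE 0.51) in co-ex females, -0.23 (SE 0.34) in KO males and 0.07 (SE 0.42) in KO females. In co-ex males, its normalized values were 94091, 70358, 64376 and 84878 after FA and 33787, 51779 and 67009.6 after O3. Only 1 of 12 pairs there had the O3 mouse higher. In co-ex females, the values were 65007, 54529, 46506 and 172412 after FA and 39889.5, 91989.6, 51888 and 33447 after O3, and the single FA mouse at 172412 stood apart. miR-125a-5p passed limma's FDR of 0.1 in none of the 6 tables.

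The neighbours of each locus are described on the same scale, males before females within SP-A2, then co-ex, then KO. miR-100-5p, 5′ of Mir125b-1, had log2 differences of 1.41, 3.08, 2.96, 6.77, 3.03 and 3.63. miR-99a-5p, 5′ of Mir125b-2, had 1.20, 1.81, 0.57, 3.69, 2.44 and 1.54, and let-7c-5p, which also has a precursor there, had 0.60, 1.09, 0.66, 2.26, 0.98 and 0.33. All 3 were positive in every table. let-7a-5p, which has a precursor 5′ of Mir125b-1, was not, at 0.50, -0.06, -0.28, 0.38, -1.02 and -0.00. The neighbours of Mir125a gave 0.28, 0.23, -0.14, -0.88, 0.20 and 0.32 for miR-99b-5p and 0.00, -0.50, -0.65, -0.26, -1.11 and 0.11 for let-7e-5p. Median-ratio rescaling shifted the median of all miRNAs by -0.21 to 0.01 (log2) and left miR-125b-5p, miR-100-5p, miR-99a-5p and let-7c-5p positive in every table. It turned small values negative for miR-125a-5p in KO females (-0.05), miR-99b-5p in KO males (-0.05) and let-7e-5p in SP-A2 males (-0.05) and KO females (-0.01).

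Over all tables, 0 of 29 listed cases from the Mir125a cluster were called by limma, 11 of them above 0. Of 12 cases from the Mir125b-1 cluster, 2 were called higher, and of 12 from the Mir125b-2 cluster, 2 were called higher, with 8 and 12 above 0. These counts stand beside 0% to 5.18% of all miRNAs called by table, with 5.18% in KO males and no more than 1.38% elsewhere. let-7a-5p and let-7c-5p are also made from precursors elsewhere, so their reads do not report on these clusters alone. By table, the median log2 difference was -0.88 to 0.14 in the Mir125a cluster, 0.96 to 3.57 in the Mir125b-1 cluster and 0.61 to 2.98 in the Mir125b-2 cluster, beside -0.29 to 0.64 over all miRNAs. The Mir125b-1 and Mir125b-2 clusters had 2 listed miRNAs in each table, so their medians are midpoints. In KO males, miR-100-5p at 3.03 and let-7a-5p at -1.02 gave 1.00. Among the cell-type lists, 3 of 30 mesenchymal cases were called higher (30 above 0), 1 of 4 endothelial higher (4 above 0), 2 of 36 myeloid lower (17 above 0), and none of 65 epithelial (53 above 0), 21 erythroid (12 above 0) or 6 lymphoid (5 above 0).

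**Figure D2:**
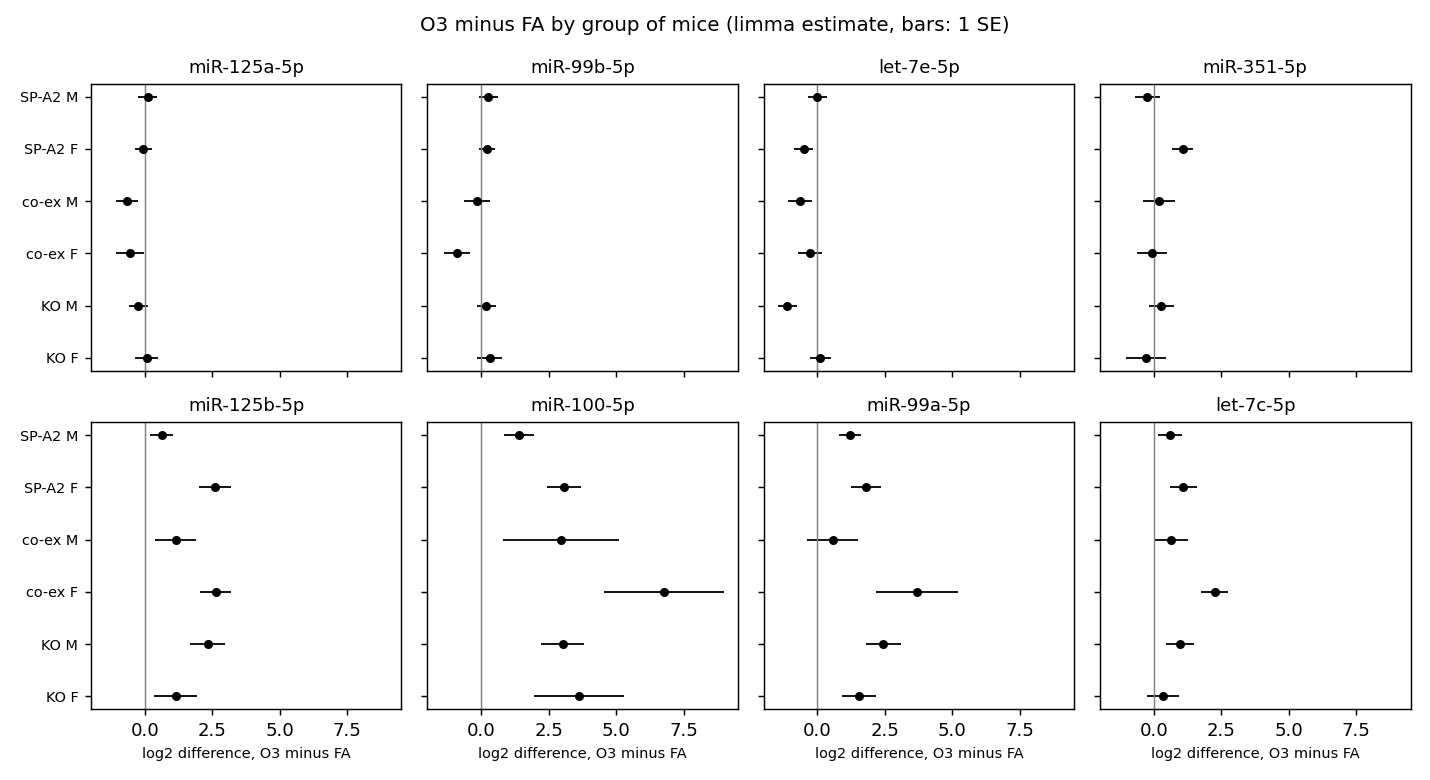
Log2 difference between O3 and FA (x axis, limma estimate with 1 SE) in the 6 groups of mice (y axis; M, males; F, females). miR-125b-5p, miR-100-5p, miR-99a-5p and let-7c-5p (bottom row) lie right of 0 in every group, while miR-125a-5p, its neighbours miR-99b-5p and let-7e-5p, and miR-351-5p (top row) lie on both sides of 0. With median-ratio rescaling, let-7e-5p is below 0 in every group.

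The ratio of miR-125b-5p to miR-125a-5p within a mouse does not depend on the factor used to scale that mouse. Its log2 ranged from -8.53 to -1.59 over the 45 mice. In SP-A2 females, it was -4.88, -6.53, -6.07 and -4.94 after FA and -1.59, -3.63, -1.88 and -4.72 after O3, without overlap. On average, there was 1 read of miR-125b-5p for 48.6 of miR-125a-5p after FA and for 7.76 after O3 (geometric means, n = 4 each). In co-ex females it was -6.47, -7.01, -4.36 and -8.53 after FA and -3.64, -4.45, -2.86 and -2.75 after O3, or 1 read for 96.6 and for 10.7. One O3 mouse there was below the highest FA mouse, with 15 of 16 pairs higher after O3. The mean log2 ratio was higher after O3 in each group, by 0.52 (SE 0.44) in SP-A2 males, 2.65 (SE 0.85) in SP-A2 females, 1.81 (SE 1.01) in co-ex males, 3.17 (SE 0.95) in co-ex females, 2.56 (SE 0.81) in KO males and 1.09 (SE 1.07) in KO females. With 1 mouse left out, the value moved between 0.25 (without O3 replicate 1) and 0.85 (without O3 replicate 2) in SP-A2 males, between 0.99 (without FA replicate 4) and 2.34 (without FA replicate 3) in co-ex males, and between 0.27 (without FA replicate 4) and 1.73 (without FA replicate 3) in KO females.

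The ratio was compared between sexes and between genotypes after the same exposure, in 18 two-sided exact permutation tests. The choice of the family did not use these comparisons. None passed, but no single test of groups this small could pass after the adjustment. The tests thus cannot decide whether the ratio differs between sexes or genotypes. The smallest exact p was 0.0571 for SP-A2 males against females after FA, the smallest that 3 mice against 4 allow, with mean log2 ratios of -3.88 in males and -5.60 in females (adjusted p = 0.72). The adjusted p of the 18 tests was between 0.72 and 0.857. The largest difference was 1.75, for co-ex males (-4.85, n = 4) against co-ex females (-6.59, n = 4) after FA (exact p = 0.257). Groups of 4 against 4 can reach an exact p of 0.0286, and those of 3 against 3 only 0.1.

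**Figure D3:**
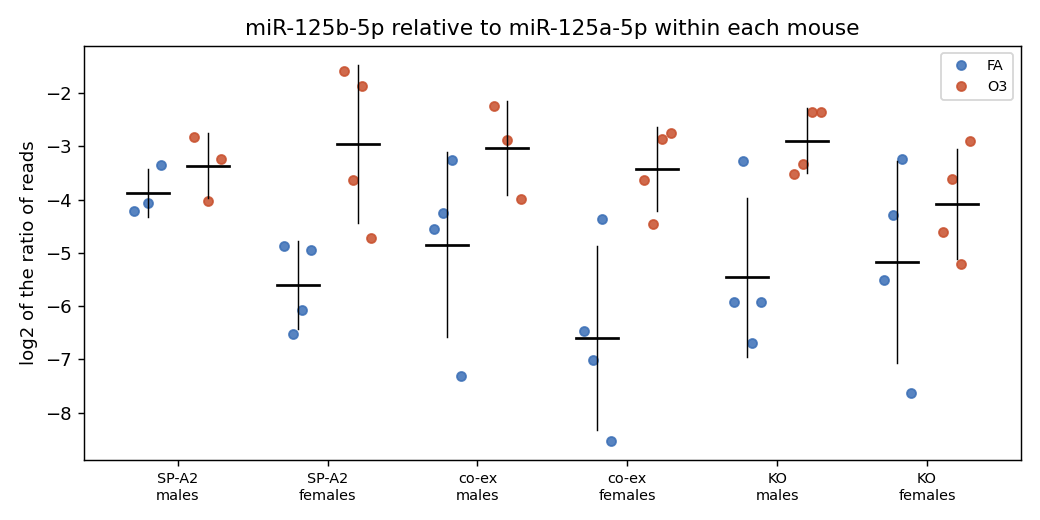
Log2 ratio of miR-125b-5p reads to miR-125a-5p reads in each mouse (y axis), for 6 genotype and sex groups after FA (blue) and O3 (orange), with group means and 1 SD. All points are below 0, from -8.53 to -1.59, and the 4 SP-A2 females after O3 lie above the 4 after FA.

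The passenger strands were rare. Among the 38 mice whose tables list miR-125b-1-3p, 17 had 0 reads (12 of 19 after FA and 5 of 19 after O3). The other 21 had 6 to 224 reads, which was 0.263% to 11.4% (median 1.11%) of the reads of miR-125b-1-3p and miR-125b-5p together. Of the 12 FA mice at 0, 4 were SP-A2 females, whose table lists this strand through O3 mice alone. In co-ex females and in KO mice of each sex, it was above 0 in just 4 mice, the fewest of any row there. The counts of mice at 0 are thus tied to the listing rule and are not read as a difference between exposures. In SP-A2 females, 0 of 3725 reads were of miR-125b-1-3p after FA, which allows a share of up to 0.0805% by the limit of 3 reads (0.099% by the exact Clopper-Pearson bound), whereas after O3 the reads were 9, 139, 121 and 22 and the pooled share was 1.32% (95% exact Clopper-Pearson interval 1.17% to 1.48%). Intervals and limits cover counting error only, since the reads are PCR copies. The normalized values after O3 were 51.7, 64.7, 114 and 22.1. Rows of this table had at least 4 mice above 0, so miR-125b-1-3p was listed there through its 4 O3 mice alone. The contrast with FA was thus favoured by the listing rule and is not support for a difference. In SP-A2 males, the reads were 0, 24 and 6 after FA and 44, 43 and 67 after O3, with all 3 O3 mice above all 3 FA mice in normalized value, but the shares overlapped between exposures.

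Elsewhere, the strands did not keep a fixed proportion. In co-ex females, miR-125b-1-3p had 61, 0, 0 and 0 reads after FA and 19, 0, 30 and 100 after O3. The FA mouse with 61 reads had 475 of miR-125b-5p, a share of 11.4%, while the O3 mouse with 0 reads had 11327. In KO females, the reads were 0, 29, 0 and 28 after FA and 0, 224, 0 and 32 after O3. The FA mouse with 28 reads had 221 of miR-125b-5p (11.2%), and the O3 mouse with 224 had 6597 (3.28%). In KO males, the reads were 0, 11, 0 and 10 after FA and 0, 18, 42 and 0 after O3. The 0 reads of the first and the last of these O3 mice stand beside 1445 and 2218 of miR-125b-5p.

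miR-125b-2-3p, listed in SP-A2 males, had 3, 0 and 1 reads after FA and 28, 5 and 0 after O3. Over the 6 mice, it was above the limit of 3 reads in 2, and the mouse with 28 reads had 44 of miR-125b-1-3p. Pooled over the O3 mice, miR-125b-2-3p was 0.299% of its reads together with miR-125b-5p (interval 0.206% to 0.42%) and miR-125b-1-3p 1.38% (1.17% to 1.61%). Passenger strands of the 2 loci may be kept to different degrees, so these shares do not divide the reads of miR-125b-5p between the loci.

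**Figure D4:**
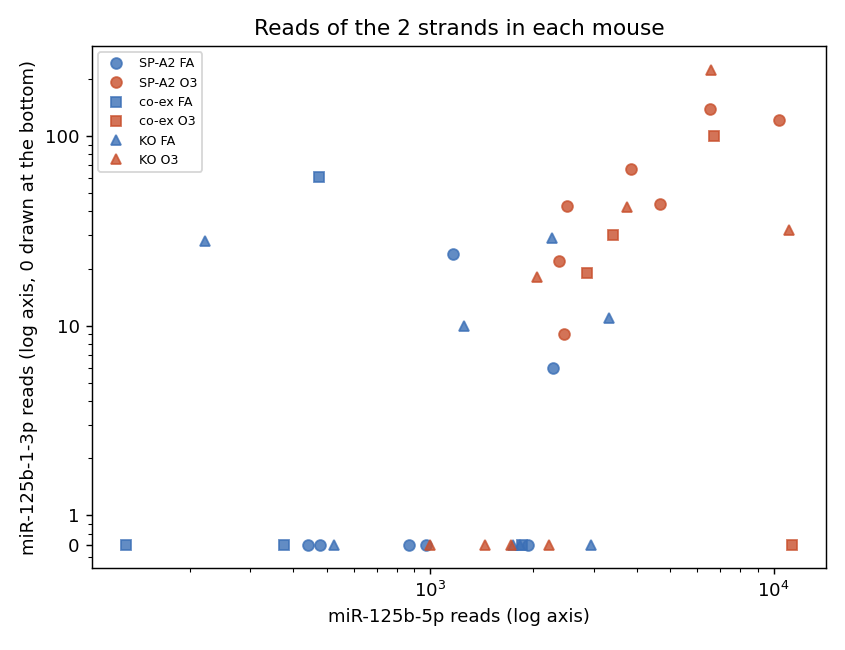
Reads of miR-125b-1-3p (y axis, log scale with 0 at the bottom) against reads of miR-125b-5p (x axis, log scale) in the 38 mice whose tables list both. Colour gives the exposure and shape the genotype. Of the 17 mice at 0, 1 O3 mouse of co-ex lies far right with 11327 reads of miR-125b-5p, and 2 FA mice with 221 and 475 reads of miR-125b-5p have 28 and 61 of miR-125b-1-3p.

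Genotypes were compared after the same exposure within each sex, by edgeR's quasi-likelihood test on the reads recovered from the deposited values. miR-125a-5p was 2.71-fold higher in co-ex than in SP-A2 males after FA (log2 1.44, SE 0.30, edgeR adjusted p = 0.00709). Its levels were 93940, 76816, 38817 and 105701 RPM in the 4 co-ex males and 39481, 26825 and 33808 in the 3 SP-A2 males. On this scale, the lowest co-ex mouse lay just below the highest SP-A2 mouse, and the other 3 lay above all SP-A2 mice. The call held in all 11 fits without 1 mouse and under the 4 other settings. In that comparison, 19.1% of the 220 miRNAs tested were called. The summed myeloid miRNAs (all 6 of the list) were lower in the co-ex males, at 3788 to 36460.1 RPM, than in the SP-A2 males, at 179773 to 193445. Most of this sum was miR-21a-5p, with a mean normalized value after FA of 14541 in co-ex males and 145128 in SP-A2 males. The rest of the list was also lower in co-ex males, apart from miR-155-5p, at 591 and 76.3. These means come from 2 separately normalized tables. The erythroid sums were 31004 to 363807 and 6584 to 33401. The part of these lists in the difference of miR-125a-5p was not tested. The difference of SP-A2 from KO males after FA was a log2 value of -0.87 (SE 0.29) and did not pass (edgeR adjusted p = 0.274), beside 1.82% called.

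Among 30 tests of a member between genotypes, the call above was the only one, and 4 had an unadjusted p below 0.05. Of these 4, 2 were of miR-125b-1-3p against SP-A2 females after FA, which were all at 0 and listed only through their O3 mice. There, 19 and 21 of 252 miRNAs had such a p, beside 12 and 53 of 220 in the 2 of miR-125a-5p in males. The share of all miRNAs called was 7.27% for co-ex against KO males after FA and 3.64% for co-ex against SP-A2 males after O3. It was 0.397% for co-ex against SP-A2 females after FA. It was 0% in the other 7 comparisons, apart from the 2 of miR-125a-5p in males given above. miR-125b-5p passed in none of its 12 (edgeR adjusted p from 0.402 upward). After FA in males, its levels were 3183 ± 1679 (SD, n = 4) RPM in co-ex, 2340.3 ± 866 (SD, n = 3) in SP-A2 and 1739.6 ± 1955 (SD, n = 4) in KO.

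Between males and females of a genotype after the same exposure, edgeR with TMM called 0 of 16 member tests. Of these tests, 3 had an unadjusted p below 0.05. Each of the 4 alternatives called 1: RLE size factors, DESeq2, a low-count filter and the replicate number as a block. The share of all miRNAs called is not given for these alternatives. miR-125a-5p was at 33371 ± 6339 (SD, n = 3) RPM in SP-A2 males and 64269 ± 19045 (SD, n = 4) in SP-A2 females after FA (log2 -0.93, male minus female, SE 0.29, edgeR adjusted p = 0.13, beside 4.24% of 354 miRNAs called). This was the case that each of the 4 alternatives called. miR-125b-5p was at 3183 ± 1679 (SD, n = 4) in co-ex males and 1170.0 ± 889 (SD, n = 4) in co-ex females after FA (log2 1.88, SE 0.71, edgeR adjusted p = 0.57, beside 0% of 217 called).

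Whether the response to O3 differed between sexes or genotypes was tested by 9 interactions in limma, which are not independent of the choice of the family. They called 0 of 24 member tests, with 2 at an unadjusted p below 0.05. One was of miR-125b-5p for SP-A2 males against females, beside 16 of 354 miRNAs. The other was of miR-125b-1-3p for SP-A2 against KO females, beside 16 of 281, with all 4 SP-A2 females at 0 after FA. For miR-125b-5p, the log2 response of SP-A2 males minus that of SP-A2 females was -1.98 (SE 0.83, limma adjusted p = 0.838, beside 0.282% of 354 called). Of all miRNAs, 0.312% were called for SP-A2 against KO males and 0% in the other 7 interactions. The larger differences of SP-A2 and co-ex females were thus not shown to differ from those of the males.

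Over the 45 mice and 205 other common miRNAs, the levels most like those of miR-125b-5p (log2 RPM + 1, centred within each table) were of let-7c-5p (Spearman's rho 0.89), miR-214-3p (0.86) and let-7b-5p (0.80). Those most like miR-125a-5p were of miR-1249-3p (0.83), let-7d-3p (0.79) and miR-652-3p (0.77). The points share the exposures and the library of each mouse. Centred within each of the 12 groups, which removes the exposure, the values were 0.81, 0.64 and 0.80 for the first 3 and 0.89, 0.89 and 0.82 for the others. miR-125b-5p and miR-125a-5p themselves gave -0.10 within groups. let-7 members differ by few bases, and how reads were divided among them is not given in the sources used here.

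Within groups, the rho of miR-125b-5p was 0.61 with the summed mesenchymal miRNAs, 0.54 with the epithelial, 0.55 with the erythroid and -0.38 with the myeloid. For miR-125a-5p, these were -0.40, -0.46, -0.04 and -0.26. Single miRNAs of a list differed, so a sum does not stand for each of them. With miR-125b-5p, the mesenchymal miR-214-3p gave 0.64, miR-145a-5p 0.49, miR-199b-3p 0.35 and miR-143-3p 0.24. The epithelial miRNAs ran from 0.73 (miR-200c-3p) down to 0.05 (miR-34c-5p) and -0.11 (miR-205-5p). All are descriptions over 45 mice whose libraries share 1 total each, so that a rise in some miRNAs lowers the shares of the others.

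**Figure D5:**
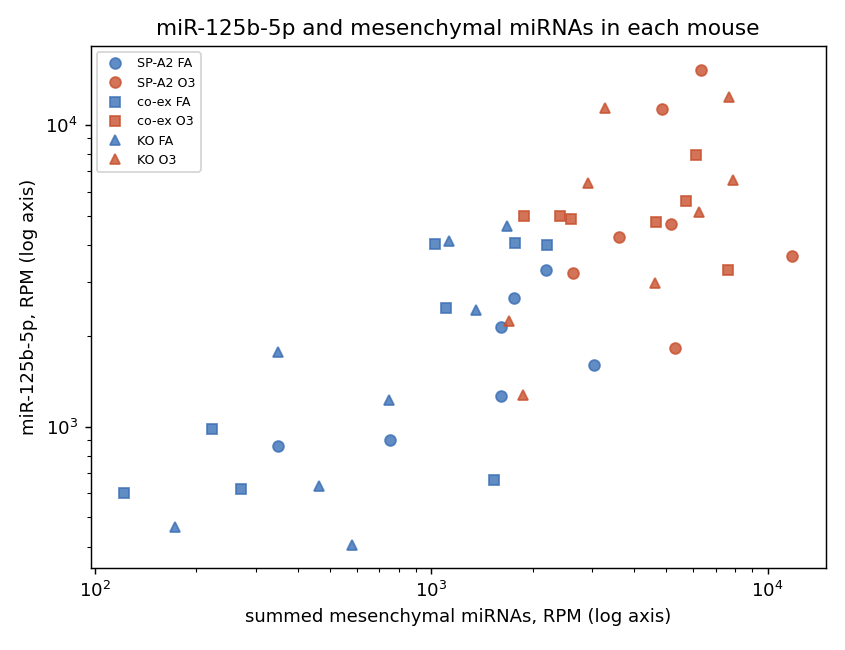
miR-125b-5p (y axis) against the summed level of 4 mesenchymal miRNAs (x axis), both in RPM on log axes, in 45 mice. Colour gives the exposure and shape the genotype. The mesenchymal sums run from 122 to 3044 after FA and from 1701 to 11819.5 after O3, and the mice with more of these miRNAs tend to lie higher.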

How the data were processed

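Small RNA libraries of AM (NEXTflex Small RNA kit) were sequenced, and the authors deposited 6 tables with a normalized signal per miRNA and mouse, the reads divided by 1 factor per mouse within each table. The submitters' processing notes name CASAVA and edgeR, and the paper's methods name edgeR and TCC. The aligner, miRNA reference and build are not given in the sources used here. The deposited p-values, q-values and ranks for FA against O3 were not used.

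Every value was a whole multiple of its mouse's step (100% of values), which gave back whole reads. Only 8 mice had at least 100 values within 20 steps, and the others had 14 to 66, so their step rests on few low values. Tables were normalized separately, so normalized values were compared within a table, and recovered reads between tables. O3 and FA were compared by limma 3.58.1 (R 4.3.3, trend) on log2(normalized value + 1), a scale that understates changes of low values. Sexes and genotypes were compared by edgeR 4.0.16 (TMM, quasi-likelihood) on recovered reads, and ratios by exact permutation tests (scipy 1.17.1), all with the Benjamini-Hochberg adjustment and an FDR of 0.1. A count of 3 reads was taken as the limit that 0 reads allows. Fits were tested on simulated data.

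Groups came from the sample labels. The 63 pairs of mice within groups differed by more than counting error (lowest chi-square per degree of freedom 53.8). The members and lists were chosen with earlier results of these data known. The miRNAs named are the members, their cluster neighbours and miR-351, and the 3 most like each 5p member. Single tests were named at an unadjusted p below 0.05. This left out the fitted values of miR-125b-1-3p, which was at 0 in all 4 SP-A2 females after FA. Coordinates are from RefSeq and GENCODE M21 on GRCm38. Alternatives were pseudocounts of 0.1 and 10, a filter at 10, rescaling, other tools, a replicate block, medians, an FDR of 0.05 and leaving out each mouse.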

Additional observations from a re-analysis of the deposited data

Results flagged for a closer look

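Among 35 groups of 4 mice checked for 1 mouse far from the others (Dixon's criterion), 4 stood out, all after FA. Chance flags about 1 group in 20 if values are normally distributed, and these values were taken without a log. In co-ex females, miR-125a-5p was at 172412 in replicate 4, against 46506 to 65007 in the other 3 mice. In KO males, miR-125a-5p was at 70875 in replicate 4, against 36760.5 to 39587 in the others. In co-ex females, miR-125b-5p was at 2261 in replicate 3, against 423 to 731. In the same group, miR-125b-1-3p was at 93.9 in replicate 1, with 0 in the other 3, a pattern that this criterion always flags.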

How the results depend on the processing

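Of the 18 cases of a member in a table, limma called 4 between O3 and FA. This count was 0 with edgeR on recovered reads, 2 at an FDR of 0.05, 2 with the replicate number as a block, and 2 to 4 when each mouse was left out in turn, and it was 3 or 4 under the other settings. The cause was not tested, and the share of all miRNAs called is not given for these other settings. In SP-A2 females, the call of miR-125b-5p was lost without FA replicate 2, 3 or 4 or O3 replicate 1 or 3 (adjusted p up to 0.28), and that of miR-125b-1-3p without FA replicate 2 or 3 or O3 replicate 1 or 3 (up to 0.214). In co-ex females, miR-125b-5p was lost without FA replicate 1 or 2 (up to 0.127), and in KO males without FA replicate 1, 3 or 4 or O3 replicate 2 or 3 (up to 0.237). Between males and females, the count of 0 became 1 with RLE size factors, 1 with DESeq2, 1 with a low-count filter, 1 with the replicate block, and 0 to 1 with each mouse left out, where 1 came without SP-A2 female FA replicate 4. That case was miR-125a-5p in SP-A2 after FA. The counts between genotypes (1) and for the difference of the responses (0) did not move under the alternatives run for each. The count for the ratio was 0 throughout, which says nothing of its stability, since no single test of groups this small could pass after the adjustment.

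Mice with the same number shared only that number: over 86 pairs in 24 comparisons, the correlation of their deviations was -0.24 to 0.31, and in 0 comparisons was every pair above 0.1. The passenger strand miR-125b-1-3p had 0 reads in 17 of 38 mice, and the part of sequencing depth in this was not tested.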
